A study of Arabidopsis thaliana with 14 samples.

Results

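Paternally expressed genes (PEGs) are imprinted genes whose mRNA in the endosperm, the nutritive tissue of the seed, comes mainly from the copy inherited through the pollen. The members described here are the PEGs of the study's list that are left after 15 well-known imprinted genes and their relatives, such as PHE1, HDG3 and ADM, had been set aside. That leaves 229 of 244 listed genes, of which 225 were found among the 27394 genes in the count tables. The choice used gene identity alone and no expression value of these libraries.

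At many PEGs, DNA methylation is removed from the maternal copy in the central cell and Polycomb proteins then repress that copy, while the paternal copy stays active. Many PEGs are expressed early in endosperm development, before its nuclei are partitioned into cells. Seeds with an extra paternal genome are known for raised PEG expression, late or failed endosperm cellularization and seed collapse, the response called the triploid block.

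The samples were whole siliques of Arabidopsis thaliana in the Col-0 background, 6 to 9 days after anthesis, with 3 siliques in each of 14 libraries. Aza1 eM3 (n = 4) and Aza1 eM2 (n = 3) were successive generations of a single suppressor line obtained by treating jas-3 plants with 5-Azacytidine, an inhibitor of DNA methyltransferases, so their spread does not measure the spread between treated lines. DMSO (n = 3) was the solvent control in jas-3, jas-3 (n = 2) was the untreated mutant, and WT (n = 2) was Col-0 with an intact JASON gene. The jas-3 mutation was thus shared by all groups except WT. It makes part of the pollen diploid, so that a selfed silique holds triploid seeds beside diploid ones. A silique also holds fruit wall, seed coat and embryo, and in such bulk samples fewer cells of a type and less RNA per cell cannot be told apart. The labels call the DMSO, jas-3 and WT libraries biological replicates, and the study describes the Aza1 eM3 libraries as from different plants of the Aza1 line. For Aza1 eM2 the labels give replicate numbers alone, while a figure legend of the study lists Aza1 eM2 among its biological replicates. Whether each of these libraries came from a different plant is not stated. The p-values there measure the spread between libraries of this line.

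Each library held 40526464 to 43974069 gene counts. JASON, the mutated gene, had 93 to 196 counts in Aza1 eM3, 80 to 109 in Aza1 eM2, 111 to 169 in DMSO, and 188 and 225 in jas-3, against 14 and 14 in WT. JASON was thus higher, not lower, in every group that carries jas-3 than in WT, so every direction against WT below rests on the libraries as labelled. WT siliques also stood apart in marker genes. The share of gene counts in 8 seed storage protein genes was 14.9% to 27.6% in Aza1 eM3, 21.8% to 30.7% in Aza1 eM2, 10.7% to 22.6% in DMSO, 7.97% and 17.0% in jas-3, and 36.7% and 42.5% in WT. Summed over 5 endosperm markers (AGL62, ZOU, IKU2, MINI3 and SUC5), the level was 117 to 131 CPM (counts scaled to library sizes normalized by TMM) in Aza1 eM3, 87.5 to 98.8 in Aza1 eM2, 98.1 to 149 in DMSO, 125 and 146 in jas-3, and 22.7 and 24.6 in WT. IKU2 made up 20.8 and 20.4 CPM of the WT sums. MINI3 was at 0 counts in both WT libraries. It was also at 0 in Aza1 eM3 replicates 2 and 4, Aza1 eM2 replicates 1 and 3 and DMSO replicate 3. Its 0 counts thus do not set WT apart. The part of these differences in the results below was not tested, apart from a fit with the storage share as a covariate.

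Distance to transposable elements (TEs) was taken from the annotation and is a description without a test. A TE lay within 1000 bases of the annotated start of 97 members (43.1% of 225), against 27.5% of all genes, and the median distance was 1499 bases in members and 3529 bases in all genes. They were spread over the 5 chromosomes much as all genes were, with 26.2% of members and 26.0% of all genes on chromosome 1. Of the 225 members, 219 had at least 95% of their windows of 100 bases only once in the genome, so few of them share reads with a near copy. AT1G61330 (88.0%), APD4 (75.1%) and AT3G09340 (74.1%) were the members under 90%, and their counts are uncertain to that extent.

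The start regions of 3 members are shown because the results return to these genes, and each runs 5′ to 3′ from 250 bases before to 50 bases after the annotated start, read from RefSeq TAIR10.1. MEO, a SKP1-family subunit of ubiquitin ligases, and AT2G20170 start 889 bases apart on opposite strands of chromosome 2, and both were lower in Aza1 eM2. AGL23, a type I MADS-box factor, is the called member whose start region holds a CArG box, the site that MADS-box proteins bind. Capitals mark a CArG box in AGL23 and an RY element (CATGCA) in AT2G20170.
MEO, chr2:8700075-8700374, minus strand: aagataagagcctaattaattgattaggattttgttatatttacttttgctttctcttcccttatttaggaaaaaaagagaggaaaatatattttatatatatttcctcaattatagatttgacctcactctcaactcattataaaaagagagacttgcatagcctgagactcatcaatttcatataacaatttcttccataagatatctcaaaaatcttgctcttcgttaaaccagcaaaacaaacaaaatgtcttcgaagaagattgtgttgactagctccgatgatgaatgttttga
AT2G20170, chr2:8700763-8701062, plus strand: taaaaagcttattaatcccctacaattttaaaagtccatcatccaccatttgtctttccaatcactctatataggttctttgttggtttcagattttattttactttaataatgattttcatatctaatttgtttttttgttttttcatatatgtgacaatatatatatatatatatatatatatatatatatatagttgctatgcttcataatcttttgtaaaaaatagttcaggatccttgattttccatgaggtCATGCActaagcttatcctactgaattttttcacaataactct
AGL23, chr1:24281087-24281386, plus strand: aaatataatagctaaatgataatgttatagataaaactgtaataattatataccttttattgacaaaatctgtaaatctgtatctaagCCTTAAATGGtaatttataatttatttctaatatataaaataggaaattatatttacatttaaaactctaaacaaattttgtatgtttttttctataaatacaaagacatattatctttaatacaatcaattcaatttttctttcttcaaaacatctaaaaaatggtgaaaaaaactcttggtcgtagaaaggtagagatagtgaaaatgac
The CArG box of AGL23 began 162 bases before the start, and the RY element of AT2G20170 lay 7 bases after it. Searched on both strands, a CArG box was present in 3.85% of the start regions of the 26 members called lower in Aza1 eM2, 1.33% of those of all 225 members and 3.01% of those of all genes. The RY element was found in 3.85%, 10.7% and 8.95% of the same sets, and the telobox (AAACCCTA) in 7.69%, 12.0% and 8.61%. The G-box (CACGTG) was found in 0 of the 26, in 8.0% of members and in 8.13% of all genes.

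Of the 225 members, 214 passed the filter on low counts. The other 11 reached at most 3 to 30 counts in their highest library, and they include the cytokinin synthesis genes IPT4 and IPT8, the LOB-domain gene LBD5 and PEG4. A gene was called when its log2 fold change reached 2 in either direction with an adjusted p under 0.01 in edgeR's quasi-likelihood test, adjusted over all 22359 tested genes.

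In Aza1 eM2 siliques, 26 members fell relative to DMSO and none rose. They include the F-box gene AT1G61330 and its relative AT1G61320, the Polycomb-domain gene AT4G16810, EFC, the nuclear factor Y subunit NF-YC5, AGL23 and the atypical E2F factor DEL2. The 26 made up 12.1% of the tested members, where 1.44% of all tested genes were called lower. On the higher side, 0 members and 0.0716% of all genes were called, and DESeq2 called 0 members too. At an unadjusted p under 0.05, 8 of the 214 members were higher, where 7.52% of all genes were. The median log2 fold change was -0.14 over the 214 members and 0.01 over all tested genes. Of the 214, 144 were lower (67.3%, against 48.1% of all tested genes). Among the 26, the mean level in Aza1 eM2 was 2.18% to 22.7% of the DMSO mean, with a median of 10.7%, and in each of the 26 every Aza1 eM2 library lay below every DMSO, jas-3 and Aza1 eM3 library. The 26 were chosen for low values in these Aza1 eM2 libraries against DMSO. Neither the levels nor the separation is thus independent support.

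**Figure D1:**
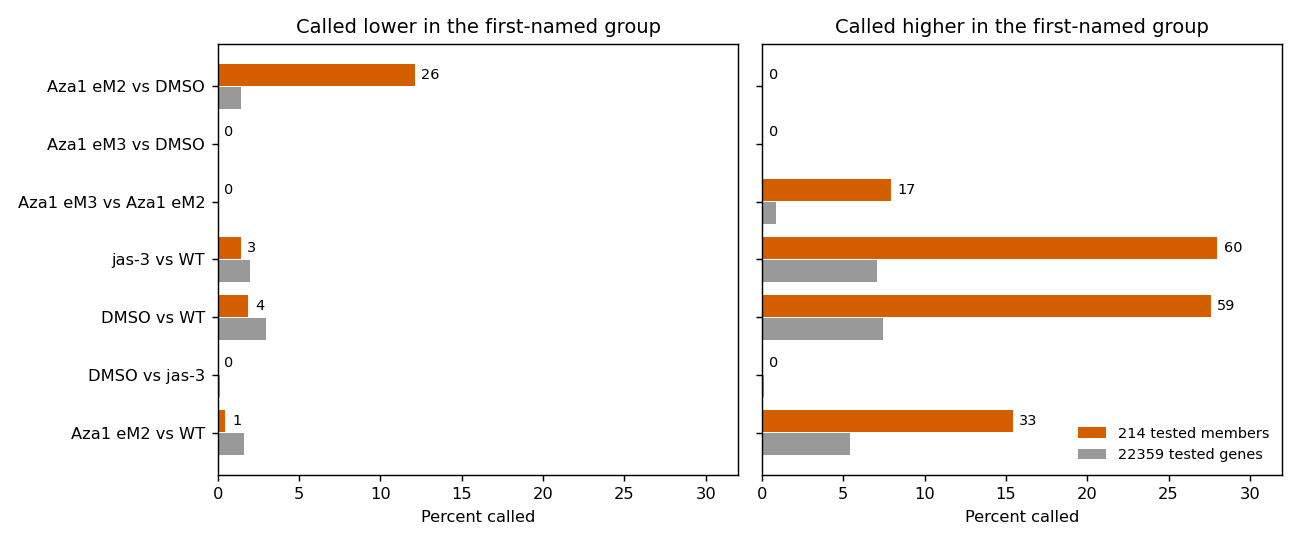
Percent of the 214 tested members (orange) and of all 22359 tested genes (grey) called lower (left) and higher (right) in the first-named group of each comparison, with the number of members beside each bar. Members exceeded the background in the decreases of Aza1 eM2 against DMSO (26), in the increases of Aza1 eM3 against Aza1 eM2 (17, or 7.94% against 0.868%) and in the increases against WT (60, 59 and 33), and none was called in Aza1 eM3 against DMSO.

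Markers of other seed tissues differed in the same libraries. The 5 endosperm markers all had negative log2 fold changes in Aza1 eM2 over DMSO, with a median of -0.67, and 0 of 5 were called. ZOU, a regulator of endosperm breakdown, had 13.98 to 19.6 CPM in Aza1 eM2, against 20.1 to 26.1 in DMSO, without overlap, and SUC5, a sucrose transporter, had 36.8 to 38.7 CPM in Aza1 eM2, against 38.3 to 84.2 in DMSO. The summed levels given above overlapped. Of the 6 embryo markers 0 were called, and their summed level was 444 to 489 CPM in Aza1 eM2, against 333 to 381 in DMSO, without overlap. The embryo regulator LEC1 had 29.8, 31.2 and 37.9 CPM in Aza1 eM2, against 74.1, 65.4 and 37.4 in DMSO, with overlap, and LEC2 had 5.44 to 6.87 CPM in Aza1 eM2, against 10.2 to 12.7 in DMSO, without overlap (edgeR log2 fold change -0.91, adjusted p = 0.0043). Their part in the decreases was not tested.

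The count of 26 depended on single libraries. It was 5 without Aza1 eM2 replicate 1, 11 without replicate 2, 12 without replicate 3 and 14 without DMSO replicate 1, 5 when genes needed 10 or more counts in each library, and 15 with the seed storage protein share as a covariate. All members called in these fits were among the 26. A further 9 members had a log2 fold change of -2 or lower but an adjusted p over 0.01. AT2G44925, of unknown function, was at 0 counts in all 3 Aza1 eM2 libraries, against 45, 27 and 17 in DMSO, which is at least 4.35-fold lower by a floor of 3 counts per library, with an edgeR adjusted p of 0.0250. PEG7 and AT4G23120, a gene with a bromo-adjacent homology domain, were also among these 9.

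**Figure D2:**
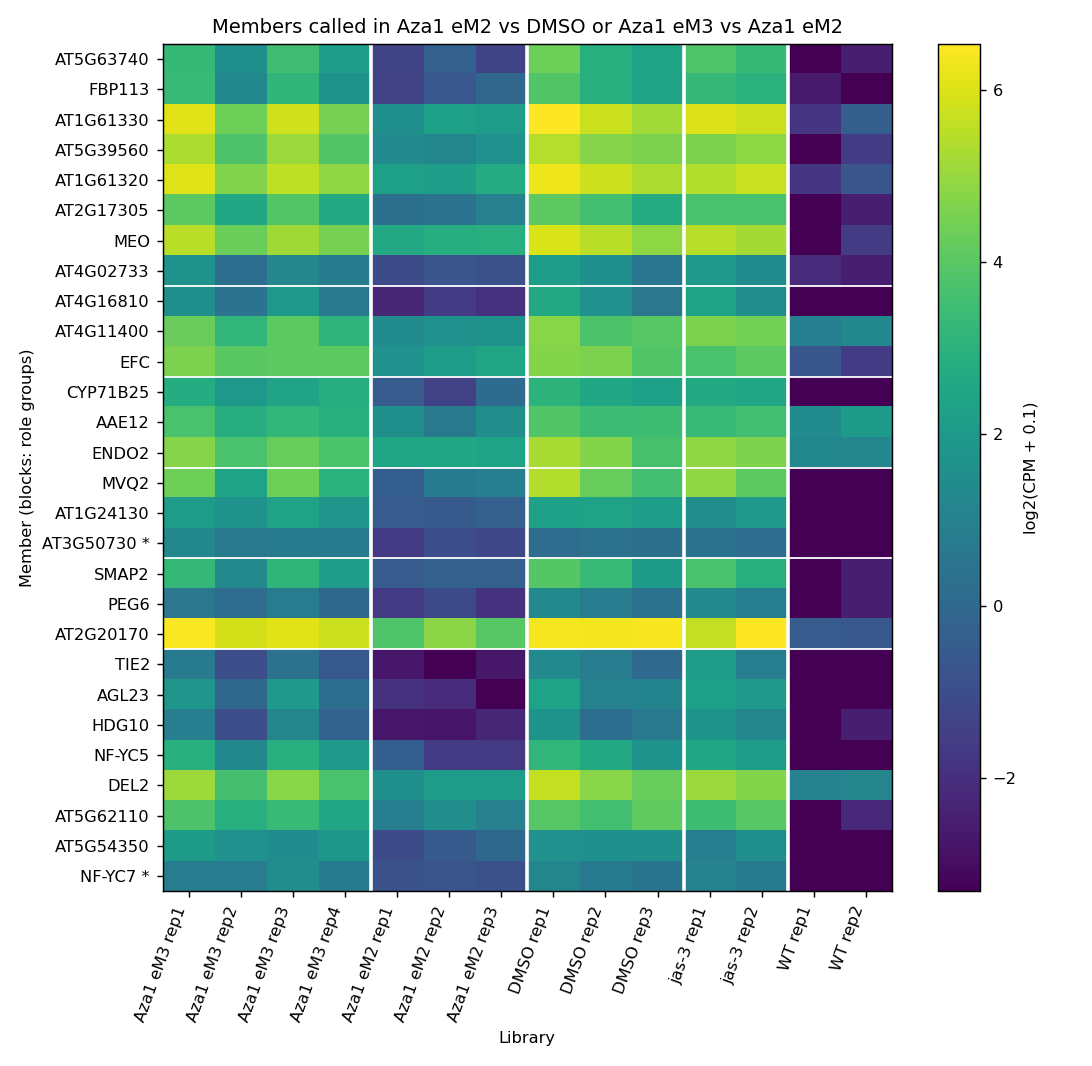
Level of the 28 members called in Aza1 eM2 against DMSO or in Aza1 eM3 against Aza1 eM2, as log2(CPM + 0.1), with 1 column per library and blocks of rows for role groups. An asterisk marks the 2 members called in the comparison of the Aza1 generations alone, AT3G50730 and NF-YC7. The Aza1 eM2 columns are darker than those of Aza1 eM3, DMSO and jas-3, and the WT columns are darkest in most rows.

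F-box, RING and other ubiquitin-related proteins formed the largest group of the decreases. F-box proteins choose the substrates of SCF ubiquitin ligases, and RING proteins are ubiquitin ligases themselves. Of 30 tested members, 8 fell in Aza1 eM2 (AT1G61320, AT1G61330, AT2G17305, MEO, FBP113, AT4G02733, AT5G39560 and AT5G63740), 0 rose, and the group's median log2 fold change was -1.27.

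AT1G61330 (chr1:22622975-22624527), an F-box gene with leucine-rich repeats, had 68.7, 20.4, 57.1 and 22.7 CPM in Aza1 eM3, 2.93, 4.81 and 4.12 CPM in Aza1 eM2, 91.5, 53.2 and 36.3 CPM in DMSO, 65.4 and 53.3 CPM in jas-3, and 0.195 and 0.700 CPM in WT. The Aza1 eM2 values overlapped with no other group, while Aza1 eM3 overlapped with DMSO. Its mean was 3.95 ± 0.954 CPM in Aza1 eM2 and 60.4 ± 28.3 in DMSO (SD, n = 3 each; log2 fold change -3.93 ± 0.53 SE, edgeR adjusted p = 0.00145). Its neighbour AT1G61320 (chr1:22617370-22619853), with FBD and leucine-rich repeat domains and 3122 bases away, had 66.9, 25.1, 48.2 and 30.1 CPM in Aza1 eM3, 4.78, 4.36 and 6.56 CPM in Aza1 eM2, 77.8, 54.4 and 39.7 CPM in DMSO, 41.7 and 51.9 CPM in jas-3, and 0.195 and 0.505 CPM in WT. The same libraries were low in both genes (log2 fold change -3.45 ± 0.39 SE, edgeR adjusted p = 0.00101), and since these relatives share sequence their counts may not be independent.

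MEO (chr2:8699672-8700124) had 45.7, 19.9, 35.4 and 23.0 CPM in Aza1 eM3, 6.07, 6.99 and 7.22 CPM in Aza1 eM2, 62.5, 45.1 and 29.1 CPM in DMSO, 44.3 and 36.5 CPM in jas-3, and 0 and 0.233 CPM in WT (log2 fold change -2.75 ± 0.38 SE, edgeR adjusted p = 0.00152). AT2G20170 (chr2:8701013-8704357), which starts beside it on the other strand, was the most abundant of the 26, with 89.7, 59.4, 67.6 and 53.9 CPM in Aza1 eM3, 14.1, 28.2 and 15.5 CPM in Aza1 eM2, 85.3, 81.6 and 86.9 CPM in DMSO, 48.9 and 92.8 CPM in jas-3, and 0.618 and 0.544 CPM in WT (log2 fold change -2.14 ± 0.29 SE, edgeR adjusted p = 0.00152). In both genes all 3 Aza1 eM2 libraries lay between WT and every other library. The next gene, PIL5, a phytochrome-interacting factor that represses seed germination, overlaps the end of AT2G20170 by 333 bases and is also a member. It had 7.48, 9.49 and 6.89 CPM in Aza1 eM2, against 3.98, 4.53 and 5.72 CPM in DMSO and was not called (log2 fold change 0.75 ± 0.18 SE, edgeR adjusted p = 0.0348), so within this stretch the low values in Aza1 eM2 held for 2 of 3 neighbouring members.

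AT5G39560, a kelch-repeat gene, had 40.1, 13.8, 32.8 and 14.3 CPM in Aza1 eM3, 2.49, 2.18 and 3.08 CPM in Aza1 eM2, 43.0, 26.8 and 24.3 CPM in DMSO, 24.3 and 28.6 CPM in jas-3, and 0 and 0.233 CPM in WT (log2 fold change -3.61 ± 0.47 SE, edgeR adjusted p = 0.00127). Its neighbour VIM3, which helps to maintain CG methylation and lies 1054 bases away, had 6.74, 6.18, 10.6 and 6.71 CPM in Aza1 eM3, 5.19, 7.36 and 5.88 CPM in Aza1 eM2, 9.88, 8.31 and 5.98 CPM in DMSO, 7.25 and 5.28 CPM in jas-3, and 3.77 and 4.43 CPM in WT. VIM3 overlapped between all groups that carry jas-3 and was not called (log2 fold change -0.39 ± 0.24 SE, edgeR adjusted p = 0.438). AT2G17305, an F-box gene with leucine-rich repeats, was called (log2 fold change -3.06 ± 0.47 SE, edgeR adjusted p = 0.00253), whereas the adjacent F-box gene SON1, a regulator of defence, was not (log2 fold change -1.24 ± 0.28 SE, edgeR adjusted p = 0.0256). SON1 nevertheless had 9.0, 10.7 and 13.0 CPM in Aza1 eM2, against 21.8, 32.7 and 22.9 CPM in DMSO, groups that did not overlap.

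Of the remaining members of this group, AT5G63740 and FBP113 had larger decreases than AT1G61330, with edgeR log2 fold changes of -4.62 and -3.99. AT5G63740, a RING gene, had 438, 119, 583 and 177 counts in Aza1 eM3, 11, 31 and 11 counts in Aza1 eM2, 1060, 332 and 248 counts in DMSO, 749 and 451 counts in jas-3, and 0 and 2 counts in WT. The DMSO libraries were spread widely, yet all stayed above the 3 Aza1 eM2 libraries. PEG1, an F-box-associated gene, had 0.966, 1.54 and 1.73 CPM in Aza1 eM2, against 3.35, 3.91 and 3.2 CPM in DMSO with an edgeR log2 fold change of -1.30, short of the threshold of 2.

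Transcription factors and regulators were the next group, with 7 of 27 tested members lower, 0 higher and a median log2 fold change of -0.42. The 7 were HDG10, AGL23, TIE2, DEL2, NF-YC5, AT5G54350 and AT5G62110. TIE2, a small repressor that acts with TCP factors, showed the largest decrease of all called members, at 74, 16, 62 and 22 counts in Aza1 eM3, 2, 0 and 2 counts in Aza1 eM2, 128, 74 and 44 counts in DMSO, 227 and 82 counts in jas-3, and 0 and 0 counts in WT (log2 fold change -5.48 ± 0.87 SE, edgeR adjusted p = 0.00378). In Aza1 eM2 it was at or below 2 counts in every library, so the fitted size of its decrease rests on very few reads.

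AGL23 (chr1:24281337-24282151), needed for development of the female gametophyte, had 154, 36, 202 and 42 counts in Aza1 eM3, 6, 6 and 0 counts in Aza1 eM2, 269, 86 and 99 counts in DMSO, 253 and 184 counts in jas-3, and 0 and 0 counts in WT (log2 fold change -4.87 ± 0.85 SE, edgeR adjusted p = 0.00659). HDG10, a homeodomain factor of the HD-ZIP IV family, had 80, 16, 110 and 30 counts in Aza1 eM3, 2, 2 and 4 counts in Aza1 eM2, 166, 48 and 70 counts in DMSO, 180 and 105 counts in jas-3, and 0 and 2 counts in WT (log2 fold change -4.74 ± 0.80 SE, edgeR adjusted p = 0.00428). Both had at most 6 counts in any Aza1 eM2 library and 48 or more in each DMSO library. NF-YC5, a histone-fold subunit of the CCAAT-binding factor, had 7.62, 2.31, 7.27 and 3.91 CPM in Aza1 eM3, 0.663, 0.227 and 0.220 CPM in Aza1 eM2, 8.85, 6.26 and 3.29 CPM in DMSO, 5.4 and 4.15 CPM in jas-3, and 0 and 0 CPM in WT (log2 fold change -4.06 ± 0.60 SE, edgeR adjusted p = 0.00254). Its relative NF-YC7, on the same chromosome, had 0.442, 0.499 and 0.439 CPM in Aza1 eM2, against 2.18, 1.57 and 1.27 CPM in DMSO and an edgeR log2 fold change of -1.86, which did not reach 2.

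DEL2, which represses cell cycle genes in the manner of E2F factors without a dimer partner, had 33.9, 12.1, 27.2 and 13.1 CPM in Aza1 eM3, 2.87, 4.11 and 4.17 CPM in Aza1 eM2, 49.5, 27.3 and 18.9 CPM in DMSO, 33.4 and 25.9 CPM in jas-3, and 1.95 and 2.14 CPM in WT (log2 fold change -3.10 ± 0.44 SE, edgeR adjusted p = 0.00170). Unlike most of the 26 it was well detected in WT, at 60 and 55 counts. The flowering repressors FLC and MAF4 were not called in this comparison (edgeR log2 fold changes 0.09 and 0.44), nor was the AP2-type factor AIL5 (0.61).

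Chromatin and DNA methylation members held 3 decreases among 31 tested, AT4G16810, AT4G11400 and EFC, with 0 increases and a median log2 fold change of -0.14. AT4G16810 encodes the VEFS domain of Polycomb proteins such as FIS2 and had 2.91, 1.27, 3.71 and 1.47 CPM in Aza1 eM3, 0.110, 0.227 and 0.165 CPM in Aza1 eM2, 6.09, 3.03 and 1.4 CPM in DMSO, 5.18 and 2.81 CPM in jas-3, and 0 and 0 CPM in WT (log2 fold change -4.35 ± 0.67 SE, edgeR adjusted p = 0.00332). AT4G11400, with ARID, ELM2 and Myb-like domains, had 19.4, 8.89, 16.4 and 8.41 CPM in Aza1 eM3, 2.57, 3.09 and 3.27 CPM in Aza1 eM2, 27.2, 13.8 and 15.5 CPM in DMSO, 24.0 and 21.6 CPM in jas-3, and 1.82 and 2.33 CPM in WT (log2 fold change -2.66 ± 0.35 SE, edgeR adjusted p = 0.00129). In AT4G11400 the Aza1 eM2 values came close to those of WT, whereas in AT4G16810 both WT libraries were at 0 counts.

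EFC, listed as an interactor of the Polycomb subunit MSI1, had 24.0, 16.2, 16.9 and 16.9 CPM in Aza1 eM3, 3.09, 4.45 and 5.66 CPM in Aza1 eM2, 26.0, 24.1 and 14.3 CPM in DMSO, 12.9 and 16.9 CPM in jas-3, and 0.520 and 0.233 CPM in WT (log2 fold change -2.29 ± 0.29 SE, edgeR adjusted p = 0.00112). A TE is annotated over its start. The rest of the group showed no call in Aza1 eM2, including SUVH3 and SUVH9 (readers and relatives of histone methyltransferases), the remodellers ATRX and CHR34, HMGA, the vernalization gene VIN3 and the methylcytosine binder ORTHL. Their edgeR log2 fold changes ran from -0.81 in ORTHL to 0.06 in SUVH9. HAC2, a histone acetyltransferase, had 28, 22 and 50 counts in Aza1 eM2, against 177, 62 and 179 counts in DMSO, without overlap, but missed the threshold (log2 fold change -1.70 ± 0.45 SE, edgeR adjusted p = 0.0546).

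**Figure D3:**
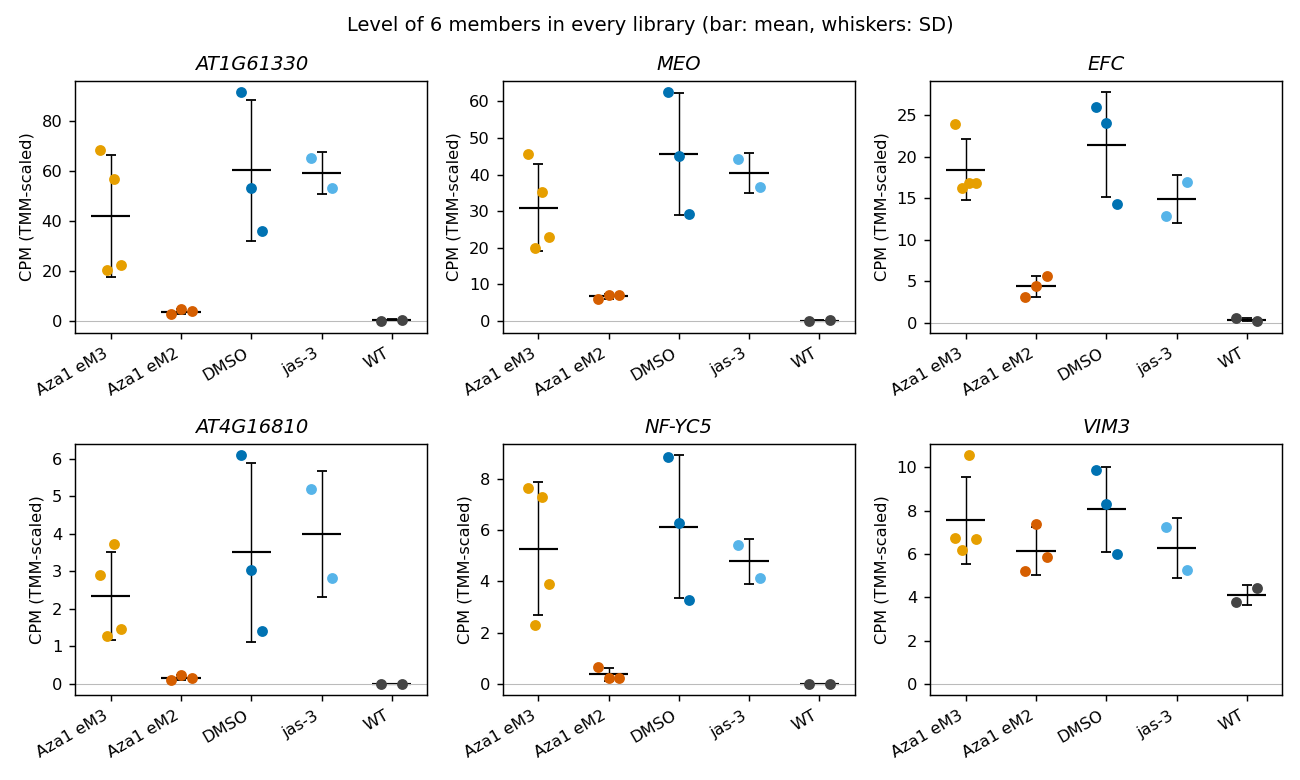
Level (CPM, TMM-scaled, linear axis from 0) of 6 members in every library, with the group mean (bar) and SD (whiskers) and n of 4, 3, 3, 2 and 2. In AT1G61330, MEO, EFC, AT4G16810 and NF-YC5 the 3 Aza1 eM2 libraries lie below all of Aza1 eM3, DMSO and jas-3, whereas those of VIM3 overlap with Aza1 eM3, DMSO and jas-3.

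Among enzymes, cell wall and transport genes 3 of 34 tested members fell, AAE12, ENDO2 and CYP71B25, and the median was -0.02. CYP71B25, a cytochrome P450, had 6.83, 3.75, 5.37 and 6.91 CPM in Aza1 eM3, 0.607, 0.272 and 0.989 CPM in Aza1 eM2, 8.24, 5.97 and 4.83 CPM in DMSO, 6.25 and 5.57 CPM in jas-3, and 0 and 0 CPM in WT (log2 fold change -3.36 ± 0.41 SE, edgeR adjusted p = 0.00121). ENDO2, a nuclease of single-stranded DNA and RNA, had a mean of 5.4 ± 0.309 CPM in Aza1 eM2 and 25.7 ± 12.8 in DMSO (SD, n = 3 each; log2 fold change -2.25 ± 0.36 SE, edgeR adjusted p = 0.00312). Its annotation overlaps that of AT1G68300, and without a stated strand their reads cannot be told apart. AAE12, an acyl-activating enzyme, had 12.9, 7.03, 9.16 and 7.29 CPM in Aza1 eM3, 2.87, 1.5 and 2.83 CPM in Aza1 eM2, 14.5, 10.6 and 11.0 CPM in DMSO, 9.86 and 11.7 CPM in jas-3, and 2.57 and 4.0 CPM in WT (log2 fold change -2.33 ± 0.30 SE, edgeR adjusted p = 0.00126). It was the only member of the 26 whose mean was lower in Aza1 eM2 than in WT.

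The most abundant members per kilobase of gene span were AT5G51490 (pectin methylesterase inhibitor superfamily), SUC2 (the sucrose loader of the phloem), APS4 (ATP sulfurylase), MEO and AT5G64130. Over all libraries they averaged 147, 87.1, 83.3, 57.1 and 40.1 CPM per kb. Except for MEO they were not called in Aza1 eM2, with edgeR log2 fold changes between -0.03 and 0.57.

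Signalling members held 2 decreases among 20 tested. MVQ2, a VQ-motif protein that is a substrate of MAP kinases, had 20.7, 5.21, 20.3 and 7.77 CPM in Aza1 eM3, 0.663, 1.59 and 1.76 CPM in Aza1 eM2, 42.4, 18.9 and 12.0 CPM in DMSO, 29.9 and 16.9 CPM in jas-3, and 0 and 0 CPM in WT (log2 fold change -4.18 ± 0.68 SE, edgeR adjusted p = 0.00428). AT1G24130, a WD40-repeat protein, had 4.23, 3.18, 5.05 and 3.4 CPM in Aza1 eM3, 0.607, 0.590 and 0.714 CPM in Aza1 eM2, 4.9, 5.07 and 4.51 CPM in DMSO, 2.85 and 3.96 CPM in jas-3, and 0 and 0 CPM in WT and the smallest adjusted p of the 26 (log2 fold change -2.92 ± 0.24 SE, edgeR adjusted p = 0.000320). The DMSO libraries were spread widely in MVQ2 and little in AT1G24130, and neither gene overlapped between Aza1 eM2 and DMSO.

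The members of other or unknown function held 3 decreases among 41 tested, AT2G20170, SMAP2 and PEG6. SMAP2, a small acidic protein, had 424, 96, 447 and 166 counts in Aza1 eM3, 22, 31 and 26 counts in Aza1 eM2, 800, 436 and 192 counts in DMSO, 698 and 350 counts in jas-3, and 0 and 2 counts in WT (log2 fold change -3.84 ± 0.61 SE, edgeR adjusted p = 0.00311), and PEG6 had 64, 42, 86 and 36 counts in Aza1 eM3, 8, 16 and 6 counts in Aza1 eM2, 132, 76 and 56 counts in DMSO, 136 and 84 counts in jas-3, and 0 and 2 counts in WT (log2 fold change -2.83 ± 0.48 SE, edgeR adjusted p = 0.00422). RNA processing and small RNA members (21 tested), hormone members (3 tested) and pollen or male germline members (7 tested) had no call in either direction. DCL4 and DRB4, which make and bind small RNAs, had edgeR log2 fold changes of 0.02 and -0.04. TAA1 (auxin synthesis) and GA1 (gibberellin synthesis) had -0.51 and -0.07.

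**Figure D4:**
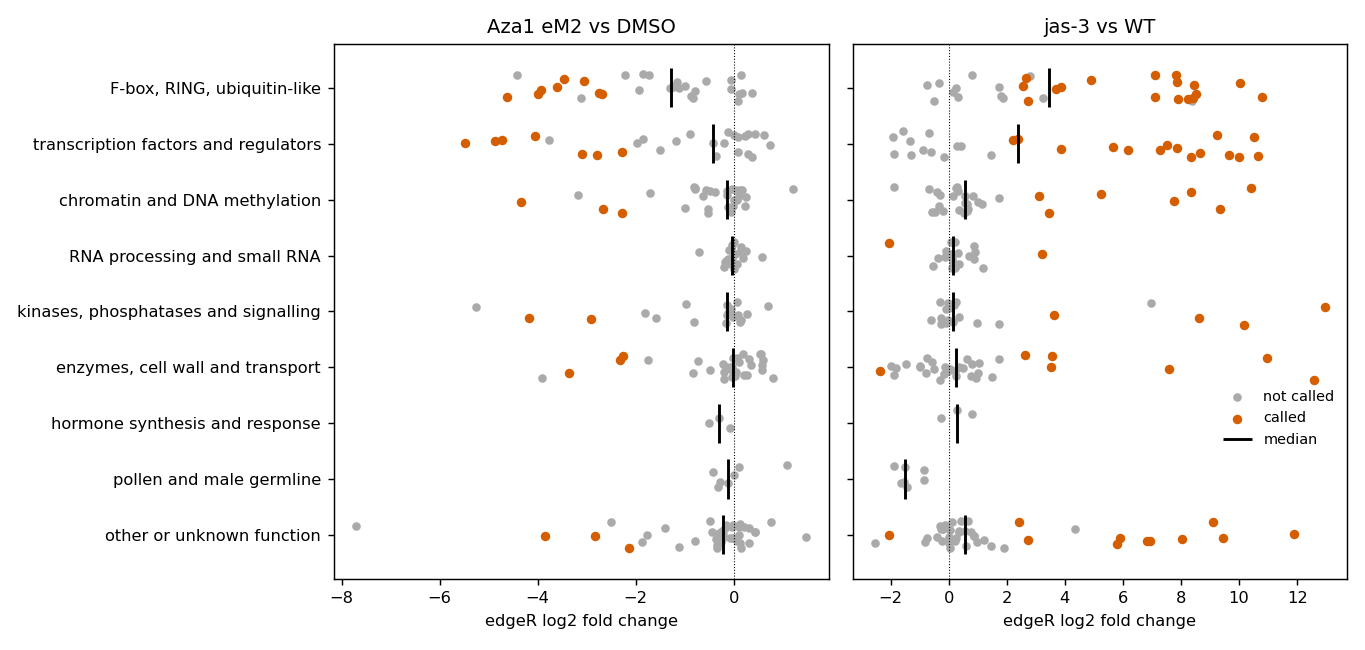
edgeR log2 fold change of every tested member in Aza1 eM2 against DMSO (left) and jas-3 against WT (right), by role group, with called members in orange and the group median as a bar. The decreases (left) lie mainly among F-box and RING genes (8 of 30) and transcription factors (7 of 27), and the same groups held 17 and 15 of the 60 increases (right), where the fitted values of members at 0 counts in WT depend on the prior count.

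The 26 members were next followed into the following generation, to ask whether the low levels persisted. In Aza1 eM3, 0 members were called against DMSO in either direction (0.0% of all tested genes were called as well), 15 members had an unadjusted p under 0.05 (9 lower, 6 higher), where 7.27% of all genes did, and DESeq2 also called 0. Against Aza1 eM2, 17 members rose in Aza1 eM3 (7.94% of 214, against 0.868% of all genes). None was called lower in that comparison, where 0.0626% of all genes were, and DESeq2 called 0. At an unadjusted p under 0.05, 11 of the 214 members were lower, where 5.18% of all genes were. Of the 17, 15 were among the 26, and the others were AT3G50730, a protein kinase, and NF-YC7. The 26 had a mean in Aza1 eM3 of 55.2% to 109% of the DMSO mean, with a median of 70.2%, and 25 of them lay between Aza1 eM2 and DMSO. The exception was AT5G54350, a zinc finger gene whose Aza1 eM3 mean was 3.31 CPM, against 3.03 in DMSO. Because Aza1 eM2 enters both comparisons, the overlap of the lists is no independent result. The 26 were also chosen for the gap between these Aza1 eM2 and DMSO libraries. An Aza1 eM3 mean between them can thus follow from the choice and is no independent result either.

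The largest increases among the 17 were in AT5G63740 (log2 fold change 3.99 ± 0.67 SE, edgeR adjusted p = 0.00636), NF-YC5 (log2 fold change 3.85 ± 0.58 SE, edgeR adjusted p = 0.00475) and AT4G16810 (log2 fold change 3.77 ± 0.65 SE, edgeR adjusted p = 0.00878). AT3G50730 had 107, 60, 78 and 64 counts in Aza1 eM3, 8, 18 and 12 counts in Aza1 eM2, 55, 53 and 54 counts in DMSO, 68 and 50 counts in jas-3, and 0 and 0 counts in WT (log2 fold change 2.43 ± 0.30 SE, edgeR adjusted p = 0.00270), and its Aza1 eM3 mean exceeded that of DMSO. The Aza1 eM3 libraries were uneven, as in AT1G61330, where replicates 1 and 3 had 68.7 and 57.1 CPM and replicates 2 and 4 had 20.4 and 22.7. Summed over the 26, the level was 545, 239, 439 and 259 CPM in the 4 Aza1 eM3 libraries, against 55.2, 76.0 and 68.5 in Aza1 eM2, and 690, 463 and 363 in DMSO. The seed storage share in the same Aza1 eM3 libraries was 19.0%, 26.9%, 14.9% and 27.6%, so replicates 1 and 3 had the higher summed level and the lower storage share.

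The count of 17 depended on the fit and on single libraries. It was 30 with DESeq2, 0 when only the Aza1 groups were in the fit, and 0 when genes needed 10 or more counts in each library. It was 1, 2 and 5 without Aza1 eM2 replicate 1, 2 or 3, and 8 and 7 without Aza1 eM3 replicate 1 or 3.

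**Figure D5:**
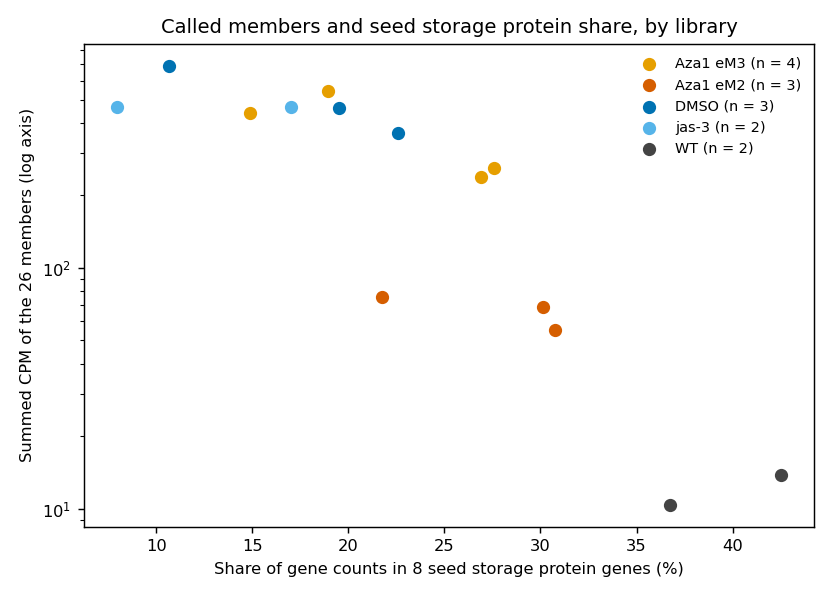
Summed level of the 26 members called in Aza1 eM2 against DMSO (CPM, log axis) against the share of gene counts in 8 seed storage protein genes (percent), with 1 point per library. At storage shares of 21.8% to 30.7%, the 3 Aza1 eM2 libraries had 55.2 to 76.0 CPM, while 2 Aza1 eM3 libraries at 26.9% and 27.6% had 239 and 259 CPM and DMSO replicate 3 at 22.6% had 363 CPM. The 26 were chosen for low values in these Aza1 eM2 libraries, so their low sums follow from the choice. The part of the storage share was not tested by this plot.

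Against WT, the question is which members differ in siliques that hold triploid seeds. In the libraries labelled jas-3, 60 members rose (28.0% of 214, against 7.08% of all tested genes) and 3 fell (1.40%, against 1.99%). In DMSO, 59 rose (27.6%, against 7.44%) and 4 fell (1.87%, against 2.98%). In Aza1 eM2, 33 rose (15.4%, against 5.40%) and 1 fell (0.467%, against 1.62%). The median log2 fold changes over members were 0.51, 0.53 and 0.31, against 0.06, 0.03 and 0.05 over all genes. The 3 comparisons share the WT libraries. All 59 members called higher in DMSO were also called in jas-3, AT1G67035, a homeobox-like gene, being called in jas-3 alone, and all 33 of Aza1 eM2 were among them.

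Between DMSO and jas-3, both in the mutant background, no member was called in either direction, where 0.0894% of all genes were called higher and 0.121% lower in DMSO. At an unadjusted p under 0.05, 17 of the 214 members differed (6 lower and 11 higher in DMSO), where 11.1% of all genes did. DESeq2 called 0 members. The median over members was -0.01.

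Many of the increases stood against a level near 0 in WT. In both WT libraries 30 members were at 0 counts (21 of them tested), and 46 were at 3 counts or fewer. AT3G29152, a lipid-transfer protein of the 2S albumin superfamily, had 572, 348, 484 and 304 counts in Aza1 eM3, 176, 266 and 148 counts in Aza1 eM2, 1084, 784 and 559 counts in DMSO, 977 and 847 counts in jas-3, and 0 and 0 counts in WT, at least 155-fold higher in jas-3, 102-fold in DMSO and 34.9-fold in Aza1 eM2 than in WT. These bounds set the lowest library, in CPM, against 3 counts in the WT library where they make the higher CPM. MVQ2 was at least 145-fold higher in jas-3 and 103-fold in DMSO, and 5.68-fold in Aza1 eM2. AT3G13010, annotated to the hAT transposon superfamily, had 359, 202, 424 and 215 counts in Aza1 eM3, 122, 153 and 100 counts in Aza1 eM2, 681, 303 and 265 counts in DMSO, 744 and 416 counts in jas-3, and 0 and 0 counts in WT, at least 75.9-fold higher in jas-3 than in WT.

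Other members at or near 0 in WT were closer to the floor. AT4G05475, of the RNI-like superfamily, was at least 23.8-fold higher in jas-3 and 9.24-fold in Aza1 eM2. MEE57, a DNA methyltransferase of the MET1 family, had 56, 20, 62 and 13 counts in Aza1 eM3, 12, 46 and 18 counts in Aza1 eM2, 100, 32 and 30 counts in DMSO, 70 and 28 counts in jas-3, and 0 and 0 counts in WT, at least 5.11-fold higher in jas-3 and 2.84-fold in Aza1 eM2 than in WT. It was not called between Aza1 eM2 and DMSO (log2 fold change -0.80 ± 0.65 SE, edgeR adjusted p = 0.561). PEG5, an AT-hook gene, had 7.98, 7.28, 2.92 and 8.79 CPM in Aza1 eM3, 3.2, 2.79 and 4.06 CPM in Aza1 eM2, 8.87, 7.23 and 3.94 CPM in DMSO, 9.55 and 7.19 CPM in jas-3, and 0 and 0.0777 CPM in WT, and was called higher than WT in jas-3, DMSO and Aza1 eM2. In AT3G29152 and AT3G13010 every Aza1 eM2 library was thus below every DMSO library and above WT, without a call against DMSO, and in PEG5 Aza1 eM2 overlapped with DMSO.

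Of the 26 members called lower in Aza1 eM2, 25 were called higher than WT in jas-3 and in DMSO, AAE12 being the exception. In Aza1 eM2, 11 of the 26 were called higher than WT. The study reports that most of all its genes lower in Aza1 eM2 were also higher in jas-3. The overlap with jas-3 is thus not particular to members. The DMSO libraries enter both the choice of the 26 and the comparison of DMSO with WT. Shares over all genes called lower here were not taken. In 22 of the 26 every Aza1 eM2 library lay above both WT libraries, the others being HDG10, AGL23, AAE12 and TIE2. EFC, for example, had 112, 196 and 206 counts in Aza1 eM2, against 16 and 6 counts in WT (log2 fold change 3.50 ± 0.44 SE, edgeR adjusted p = 9.65e-05).

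By role, the increases in jas-3 over WT covered 17 of 30 F-box and RING members, 15 of 27 transcription factors, 7 of 31 chromatin members, 6 of 34 enzymes and transporters, 4 of 20 signalling members and 10 of 41 others. A single RNA-processing member was called, the nucleotidyltransferase NTP2, and none of the hormone or pollen members was. Among the chromatin members these were HAC2, PEG5, AT4G11400, MEE57, AT4G16810, EFC and AT4G23120. VIM3, SUVH3, SUVH9, ATRX, CHR34 and VIN3 were not called, with edgeR log2 fold changes in jas-3 over WT from 0.32 in SUVH9 to 1.74 in VIN3.

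The few members called lower than WT included no F-box or transcription factor gene. AT3G51120, a zinc finger protein, had 37.0, 54.3, 37.2 and 53.7 CPM in Aza1 eM3, 51.7, 49.2 and 65.0 CPM in Aza1 eM2, 29.3, 34.1 and 48.4 CPM in DMSO, 29.2 and 43.0 CPM in jas-3, and 108 and 194 CPM in WT and was lower in jas-3 (log2 fold change -2.06 ± 0.33 SE, edgeR adjusted p = 0.000608) and in DMSO (log2 fold change -2.02 ± 0.29 SE, edgeR adjusted p = 0.000179). These calls depended on single libraries. The count in jas-3 was 6 without WT replicate 1, 1 without WT replicate 2, 0 without jas-3 replicate 1 and 7 without jas-3 replicate 2, and that in DMSO was 0 without DMSO replicate 1, DMSO replicate 2 or WT replicate 2. FRD3, a citrate exporter of the MATE family, and AT5G60760, a nucleoside triphosphate hydrolase, were called lower in jas-3, with edgeR log2 fold changes of -2.36 and -2.07. PARP3, a poly(ADP-ribose) polymerase, was called lower in DMSO, at 27.4, 28.2 and 80.1 CPM in DMSO, against 112 and 281 CPM in WT (log2 fold change -2.12 ± 0.50 SE, edgeR adjusted p = 0.00415). PLA2-GAMMA, a phospholipase of pollen, and AT3G01250, of unknown function, were also called lower in DMSO. PLA2-GAMMA had 3, 6 and 8 counts in DMSO, against 26 and 14 counts in WT, and AT3G01250 had 14, 24 and 16 counts in DMSO, against 70 and 54 counts in WT, both low. AT3G01250 was also the member called lower in Aza1 eM2 than in WT, a call that was lost without Aza1 eM2 replicate 2 or 3 or WT replicate 1.

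Pollen and male germline members, ANX2, ACT4, DAF1, DAZ3 and others, had a median log2 fold change of -1.51 in jas-3 over WT, with 0 of 7 called there. Summed over 7 other pollen and sperm markers, the level was 30.1 to 63.7 CPM in Aza1 eM3, 44.2 to 76.7 in Aza1 eM2, 51.9 to 68.6 in DMSO, 56.9 and 60.7 in jas-3, and 91.4 and 157 in WT. The higher sum in WT was carried by VGD1, a pectin methylesterase of pollen, with 49.1 and 53.4 CPM in jas-3, against 145 and 83.0 in WT, while GEX2 and GCS1, of the sperm cells, had positive log2 fold changes in jas-3 over WT (3.28 and 1.83), neither called. WT replicate 1 was the higher WT library in ANX2 (210 and 88 counts) and DAF1 (452 and 139 counts).

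Endosperm, embryo and seed coat markers and the storage share also differed between jas-3 and WT, the embryo markers in both directions. Of the 5 endosperm markers, ZOU and SUC5 were called higher in jas-3 than in WT (edgeR log2 fold changes 4.91 and 5.59). AGL62, IKU2 and MINI3 were not called (0.81, 0.54 and 7.56, the last against 0 counts in WT). Of 5 seed coat markers, BAN alone was called, and it was higher in jas-3 (3.81). The part of these markers and of the storage share in the increases was not tested, apart from the fit with the storage share. Of the 6 embryo markers LEC1 and LEC2 were called higher in jas-3 than in WT, and LEC1 had 65.5 and 58.2 CPM in jas-3, against 2.18 and 1.24 in WT. ABI3, FUS3, L1L and WOX2 had log2 fold changes of -1.52, -0.35, 1.27 and 0.56, none called. The summed level of the 6 was 356 and 364 CPM in jas-3, against 434 and 455 in WT. The storage share was higher in WT, as given above. With the storage share in the fit, 32 members were called higher in jas-3 and 38 in DMSO, and 0 were called lower in either. When genes needed 10 or more counts in each library, which removes members near 0 in WT, 9, 9 and 4 members were called higher in jas-3, DMSO and Aza1 eM2.

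Members that adjoin another member did not always move with it. The count tables held 20 such pairs in which both were tested. In Aza1 eM2 against DMSO both were called lower in 2 pairs, AT1G61320 with AT1G61330 and MEO with AT2G20170. In 4 pairs a single gene was called, AT2G17305 beside SON1, AT2G20170 beside PIL5, EFC beside AT4G23120 and AT5G39560 beside VIM3. EFC and AT4G23120 lie 1738 bases apart, and AT4G23120 had 117, 26, 51 and 40 counts in Aza1 eM3, 4, 21 and 13 counts in Aza1 eM2, 212, 154 and 54 counts in DMSO, 61 and 127 counts in jas-3, and 0 and 0 counts in WT (log2 fold change -3.17 ± 0.70 SE, edgeR adjusted p = 0.0264). AT1G28630, an EFH1-like regulator, had 16.5 and 28.5 CPM in jas-3, against 0.130 and 0.155 CPM in WT, while its neighbour AT1G28640, a GDSL lipase, had 9.1 and 14.1 CPM in jas-3, against 38.7 and 44.0 CPM in WT, so that this pair differed in direction (edgeR log2 fold changes 7.28 and -1.83 in jas-3 over WT, the second not called).

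By the same measure, the nearest TE lay within 1000 bases of the start in 15 of the 26 called lower in Aza1 eM2 (57.7%), in 31 of the 60 called higher in jas-3 (51.7%), in 43.1% of all members and in 27.5% of all genes. The nearest TE overlapped the start in AT1G61330, AGL23 and EFC, each a Helitron, and in AAE12. Over all members a TE lay on the start in 4.89%, and over all genes in 3.40%. These shares are descriptions, and the part of TEs in the changes was not tested.

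Genes around the members in the imprinting pathway were read for comparison. The 15 PEGs that were set aside held 5 decreases in Aza1 eM2 against DMSO (PHE1, AGL86, AGL92, SUVH7 and ADM) and 11 increases in jas-3 over WT. Of 6 maternally expressed genes, FWA fell in Aza1 eM2 and 4 rose in jas-3. The regulators of imprinting MEA, FIS2, FIE, MSI1, DME, MET1 and DDM1 had 0 calls in Aza1 eM2, with a median log2 fold change of -0.16. In jas-3 over WT 4 of these 7 were called higher. MEA and FIS2 stand in both lists and are counted among the increases of each.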

How the data were processed

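The deposited values are whole-number counts per gene for each library. Per the labels and the study's methods, the authors sequenced silique RNA, aligned reads with STAR to TAIR10 and normalized with DESeq2. The STAR version and the strand setting are not given in the sources used here. The labels name the Aza1 generations eM1 and eM2, called Aza1 eM2 and Aza1 eM3 here as in the study.

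Low counts were mostly even numbers (73.7% to 79.0% of counts from 1 to 20), and whether mates were counted separately is not stated, so a fit on counts divided by 2 was run as an alternative. Counts of all 14 libraries were fitted with edgeR 4.0.16 (R 4.3.3; filterByExpr, TMM, quasi-likelihood, group as the factor), with Benjamini-Hochberg adjustment over 22359 genes. The call threshold (log2 fold change of 2, adjusted p of 0.01) follows the study's methods. Its results and a figure legend instead give a fold change of 2, which is a log2 fold change of 1. The counts here therefore need not be at the threshold of the study's own lists. Levels are CPM on TMM-scaled library sizes. Alternatives were DESeq2 1.42.0, its size factors, other filters and thresholds, the 2 groups alone, a replicate block, the storage share as a covariate and leaving out each library. Floors of 3 counts cover counting error only.

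The members named are those called between groups that carry jas-3, the 10 largest calls in each direction against WT, members chosen by role, the 5 most abundant per kilobase and tested neighbours of another member. AT2G44925, AT1G67035, NTP2 and others outside this rule were chosen after their values were seen. Members and lists were chosen with earlier results of these data known. On simulated data with 200 changed genes, 194 were recovered for Aza1 eM2 against DMSO (22125 genes), 197 for Aza1 eM3 against Aza1 eM2 (22103 genes) and 181 for jas-3 against WT (22168 genes). Recovery was not split by count level or given for members alone. These numbers thus do not give the power for members at few counts, such as TIE2 and AGL23 in Aza1 eM2.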

Additional observations from a re-analysis of the deposited data

Results flagged for a closer look

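In 5 of 93 named members, 1 of the 4 Aza1 eM3 libraries stood apart from the other three by Dixon's test on log2 CPM. Chance flags about 1 in 20 groups. EFC was high in Aza1 eM3 replicate 1, at a log2 CPM of 4.58 (counts 1087, 653, 867 and 664 in replicates 1 to 4). CTL11 was high in the same library, at 4.72 (1195, 649, 802 and 603 counts). PLA2-GAMMA was low there, at -3.46 (2, 10, 12 and 9 counts), a difference of a few reads. VIM3 was high in Aza1 eM3 replicate 3, at 3.41 (306, 249, 543 and 264 counts), and NF-YC7 was high in the same library, at 1.47 (78, 69, 140 and 64 counts).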

How the results depend on the processing

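No called result changed direction under any alternative. Requiring at least 10 counts in every library, which leaves fewer members tested, gave 5 members lower in Aza1 eM2 against DMSO, 0 higher in Aza1 eM3 against Aza1 eM2, 9 higher and 1 lower in DMSO against WT, 9 higher in jas-3 against WT, and 4 higher and 0 lower in Aza1 eM2 against WT. With the seed storage share as a covariate, 15 members were lower in Aza1 eM2 against DMSO, 32 higher and 0 lower in jas-3 against WT, and 38 higher and 0 lower in DMSO against WT. With only the groups compared in the fit, 0 members were higher in Aza1 eM3 against Aza1 eM2, and 1 was lower in jas-3 against WT and 1 in DMSO against WT. DESeq2 gave 30 higher in Aza1 eM3 against Aza1 eM2 and 5 lower in jas-3 against WT, and counts divided by 2 gave 5 lower in jas-3 against WT. With a log2 fold change of 1 as the threshold, 11, 16 and 9 members were lower than WT in jas-3, DMSO and Aza1 eM2. The cause was not tested except where fewer genes or samples entered.

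Leaving out each library in turn gave 5 to 28 members lower in Aza1 eM2 against DMSO, 1 to 25 higher in Aza1 eM3 against Aza1 eM2, 0 to 7 lower in jas-3 and 0 to 6 lower in DMSO against WT, and 0 to 1 lower in Aza1 eM2 against WT. Where an arm is left with 1 library, that library is assumed to vary like the others. The increases over WT ranged over 49 to 56 in jas-3, 51 to 59 in DMSO and 26 to 36 in Aza1 eM2.

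The replicate numbers were not taken as pairs: correlations of deviations of same-numbered libraries in the comparisons among Aza1 eM3, Aza1 eM2 and DMSO ran from -0.26 to 0.29, those of the 2 pairs of DMSO and jas-3 were 0.53 and 0.20, and 2 of 6, 3 of 6 and 0 of 6 libraries correlated best with their own number in Aza1 eM2 against DMSO, Aza1 eM3 against DMSO and Aza1 eM3 against Aza1 eM2. With the number as a replicate block, 20 members were lower in Aza1 eM2 against DMSO and 5 higher in Aza1 eM3 against Aza1 eM2. Members near 0 counts in WT set most of what depth limits: a fold there is a bound.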
